A study of Canis lupus familiaris with 4 samples.

Results

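The integrated stress response is the program by which a cell under stress lowers protein synthesis in general while it raises a small set of repair and supply genes. Stress-sensing kinases, among them PERK (*EIF2AK3*) at the endoplasmic reticulum and GCN2 (*EIF2AK4*) for amino acid shortage, phosphorylate the translation initiation factor eIF2 alpha, and the mRNA of the transcription factor ATF4 is then translated more. ATF4 in turn acts on genes for amino acid synthesis and import, for tRNA charging, for further transcription factors such as CHOP (*DDIT3*), and for the phosphatase subunit GADD34 (*PPP1R15A*) that reverses the phosphorylation. ATF4 is set in large part by translation, so its protein can differ without its mRNA.

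The genes described here are a list of 35 genes of this response, chosen by name with earlier results of these data known. They are 2 kinases, transcription regulators, feedback and stress effectors, amino acid and folate enzymes, tRNA charging and export genes, and 2 secreted hormones with a lipoprotein receptor. Each gene was read from the probe set with exactly 1 gene symbol and the highest mean intensity. Of the 35 genes, 30 had such a probe set, and all 30 passed the threshold on low values, as did 9749 of the 15115 genes that could be named on the array. *ATF5*, *CEBPB*, *CEBPG*, *GADD45A* and *GARS1* are not analysed here. The 30 genes have 75 probe sets in all.

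The cells were MDCKII cells, an established canine kidney epithelial line. The 4 groups were HIF2A-KD cells in hypoxia, control cells in hypoxia, HIF2A-KD cells in normoxia and control cells in normoxia. HIF2A (*EPAS1*) encodes the oxygen-regulated subunit of a transcription factor of the hypoxia response. All cells spent 24 h in normoxia and then another 24 h in normoxia or hypoxia. The HIF2A-KD cells carry a retroviral short hairpin RNA against HIF2A. The control cells, called wild type in the sample labels, carry an empty hairpin cassette per the study's methods. Each group was measured on 1 Affymetrix canine array, so no error or p-value can be attached to a difference between 2 arrays. Effects of the hairpin, of the line and of the single array cannot be told apart from those of HIF2A. RNA came from whole cultures, in which fewer cells expressing a gene and less RNA per cell cannot be told apart.

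The labels were checked first on *EPAS1*. Its intensity was 32.6 on the hypoxic HIF2A-KD array, against 116 on the hypoxic control array. In normoxia it was 47.9 on the array labelled HIF2A-KD, against 44.6 on the control array. *EPAS1* was thus not lower on the normoxic array with the knockdown label. Both normoxic readings were dim, though above the reporter background described below. Whether a knockdown was hidden by the low signal was not tested. That array is named by its label throughout, and every direction drawn from it depends on that label. Of a list of 8 HIF targets, *VEGFA*, *ADM*, *NDRG1*, *PDK1*, *EGLN3* and *ANKRD37* were at least 2-fold higher in hypoxia under both cell line labels, and *CA9* and *BNIP3* did not pass the threshold on low values. In normoxia *VEGFA* read 535 on the array labelled HIF2A-KD, against 1447 on the control array, while the other 5 genes differed by -0.51 to 0.18 on the log2 scale. The epithelial markers *EPCAM*, *KRT8*, *KRT18*, *CDH16* and *TJP1* were above the reporter background on all 4 arrays and *CDH1* on the hypoxic arrays only. The study measured *CDH1* mRNA and its protein, E-cadherin, in normoxic MDCK cells by other methods. The low normoxic reading of this probe set thus does not show that the gene was silent there. The 4 fibroblast markers were below the reporter background on all arrays, and 3 leukocyte markers stood just above it, between 26.3 and 45.3. Of 3 endothelial markers 1 was above it on each array, at 88.8 or more. Background here means 63 reporter probe sets that represent no canine gene, whose 95th percentile lay between 20.6 and 27.2. Median intensities of the arrays were between 28.2 and 29.1.

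Differences are those of log2(intensity + 16), a scale on which dim genes change less than their intensities do. A gene was counted at a difference of at least 1 on this scale, which is called 2-fold here. As a ratio of intensities this is more than 2-fold. *PPP1R15A* and *DDIT4*, for example, were 2.01-fold and 2.09-fold lower in intensity on the normoxic array labelled HIF2A-KD than on the normoxic control array, and were not counted there. Levels of different genes are not compared, because each probe set has its own response.

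**Figure D1:**
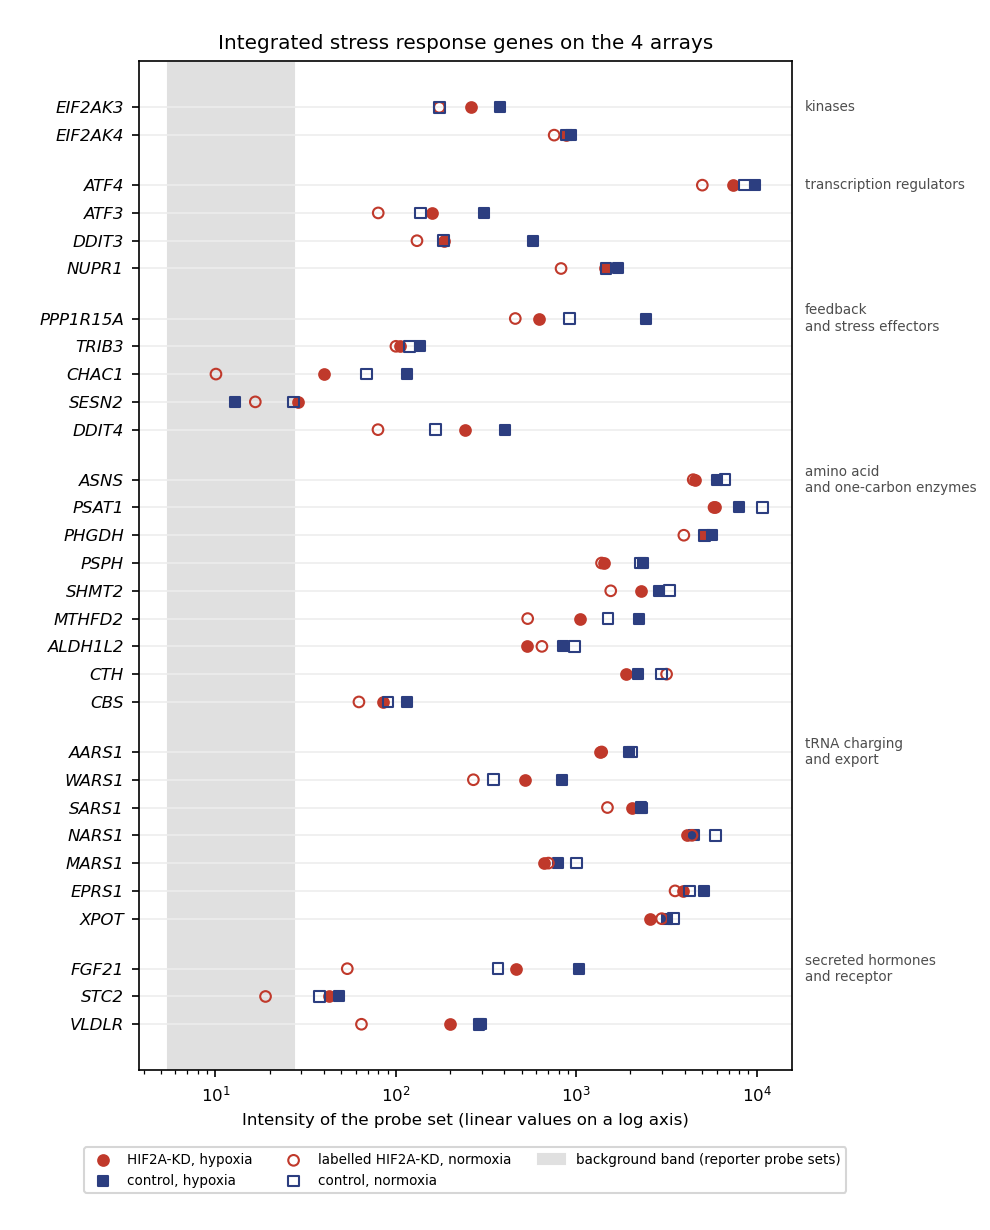
Intensity of each of the 30 genes on the 4 arrays, as linear values on a logarithmic horizontal axis, with genes grouped by role down the page. Circles are arrays labelled HIF2A-KD and squares are control arrays, filled for hypoxia and open for normoxia, and the grey band spans the reporter background. Red circles lie left of blue squares for most genes, and the open red circle, normoxia under the HIF2A-KD label, is the lowest value for 23 of the 30.

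The comparison of HIF2A-KD with control cells asks whether these mRNAs differ between the lines at each oxygen level. In hypoxia 29 of the 30 genes were lower on the HIF2A-KD array than on the control array, beside 55.7% of all genes. After quantile normalization 28 of the 30 were lower there, beside 45.4% of all genes. In normoxia 29 of the 30 were lower on the array labelled HIF2A-KD, beside 56.4% of all genes. The median difference of the 30 genes was -0.41 in hypoxia, where that of all genes was -0.04, and -0.58 in normoxia, where that of all genes was again -0.04. At both oxygen levels 28 of the 30 were lower, beside 33.7% of all genes. The exceptions were *SESN2*, the 1 gene that was higher in hypoxia, beside 44.3% of all genes, and *CTH*, the 1 gene that was higher in normoxia, beside 43.5%. For 21 of the 30 genes both arrays labelled HIF2A-KD lay below both control arrays, beside 17.7% of all genes, and for 0 of the 30 both lay above, beside 11.1%.

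At least 2-fold lower on the HIF2A-KD array in hypoxia were 5 of the 30 genes (*DDIT3*, *PPP1R15A*, *CHAC1*, *MTHFD2* and *FGF21*), beside 0.882% of all genes. In normoxia 5 genes (*CHAC1*, *SHMT2*, *MTHFD2*, *FGF21* and *VLDLR*) differed by at least 2-fold in the same direction on the array labelled HIF2A-KD, beside 0.544% of all genes. *CHAC1*, *MTHFD2* and *FGF21* were at least 2-fold lower at both oxygen levels, as were 14 of 9749 genes (0.144%). None of the 30 genes was at least 2-fold higher under the HIF2A-KD label at either oxygen level, beside 0.103% of all genes in hypoxia and 0.615% in normoxia. Across genes, which are not independent replicates, the knockdown differences in hypoxia and normoxia had a Pearson r of 0.45 and a Spearman rho of 0.52 over the 30 genes, and an r of 0.17 and a rho of 0.16 over all 9749. These 2 comparisons share no array.

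**Figure D2:**
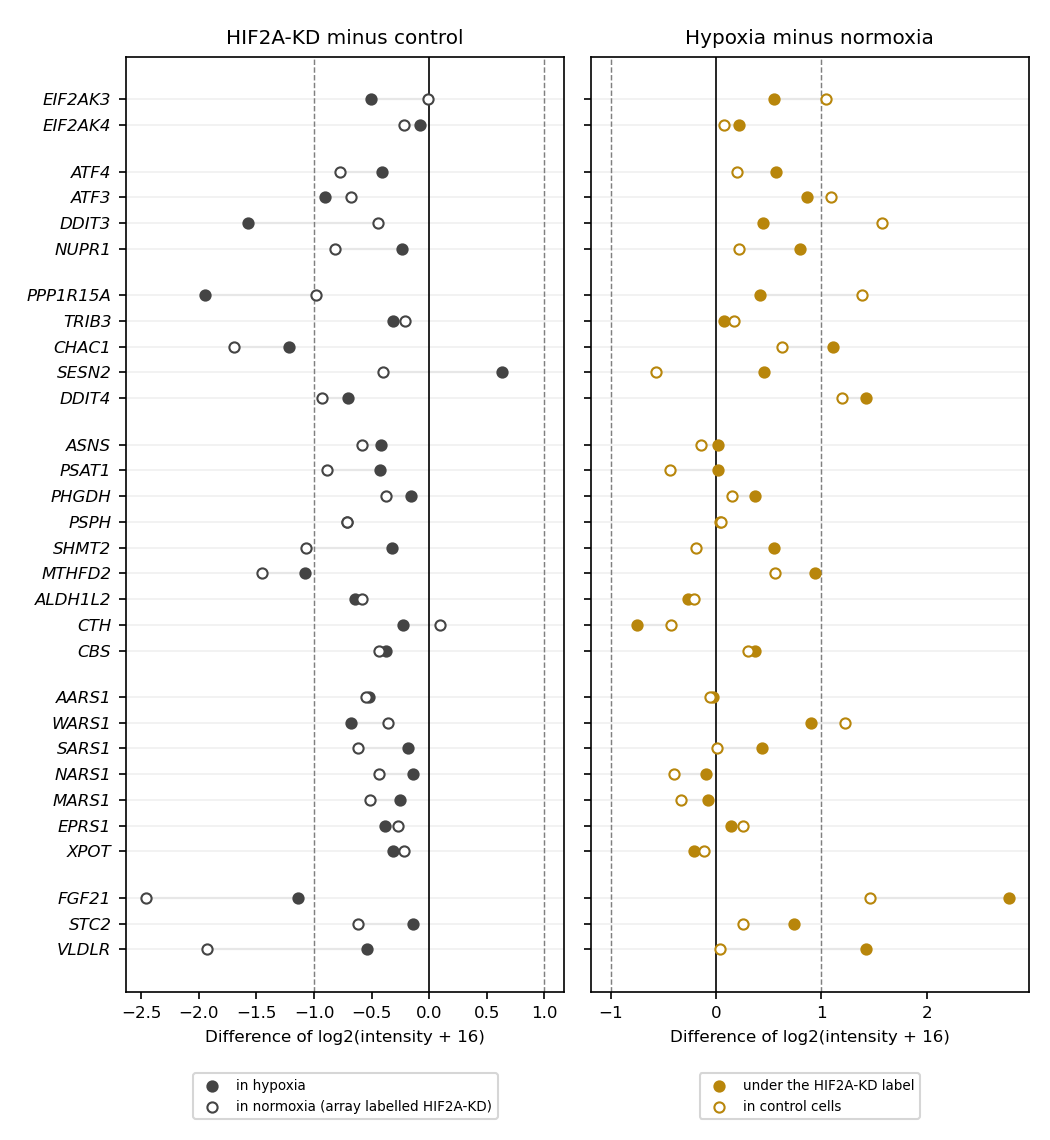
Differences of log2(intensity + 16) for each of the 30 genes, between HIF2A-KD and control on the left and between hypoxia and normoxia on the right, with dashed lines at 2-fold. On the left filled points are hypoxia and open points normoxia, and nearly all lie below 0. On the right filled points are the HIF2A-KD label and open points control cells, and the amino acid enzymes and tRNA genes scatter around 0 while most regulators and effectors lie above it.

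The comparison of hypoxia with normoxia asks which of these genes follow the oxygen level in each line. Under the HIF2A-KD label 24 of the 30 genes were higher on the hypoxic array and 6 were lower, beside 53.2% and 46.8% of all genes, with a median difference of 0.43 where that of all genes was 0.02. In control cells 20 of the 30 were higher in hypoxia and 10 lower, beside the same 53.2% and 46.8% of all genes, with a median of 0.16 where that of all genes was 0.03. At least 2-fold higher in hypoxia were 4 genes under the HIF2A-KD label (*CHAC1*, *DDIT4*, *FGF21* and *VLDLR*), beside 1.38% of all genes. For *CHAC1* the normoxic array labelled HIF2A-KD was below the reporter background, and against that background the ratio of intensities was at least 1.95-fold. In control cells the genes counted were 7 (*EIF2AK3*, *ATF3*, *DDIT3*, *PPP1R15A*, *DDIT4*, *WARS1* and *FGF21*), beside 3.05% of all genes. *DDIT4* and *FGF21* were counted under both labels, as were 0.882% of all genes. None of the 30 was at least 2-fold lower in hypoxia, beside 0.421% of all genes under the HIF2A-KD label and 0.544% in control cells. Both hypoxic arrays lay above both normoxic arrays for 7 of the 30 genes, beside 27.1% of all genes, and below them for *CTH* alone, beside 22.6%. The first of these shares is near that of all genes, so it is not a result about the 30 genes.

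**Figure D3:**
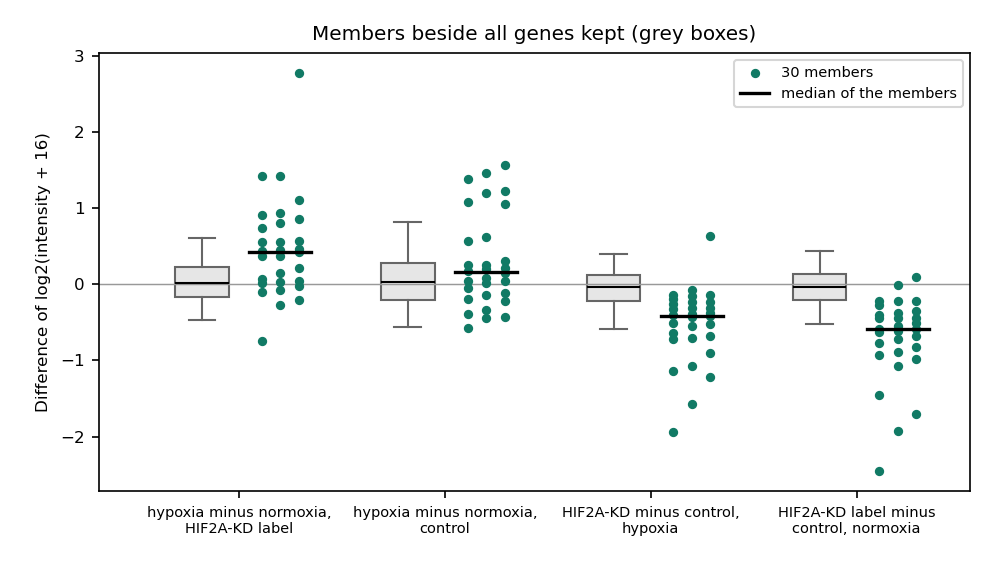
Differences of log2(intensity + 16) in each of the 4 comparisons, with the 30 genes as points and a black bar at their median, beside a grey box for all 9749 genes (box, quartiles with the median; whiskers, the 5th and 95th percentiles). In the 2 knockdown comparisons the median of the 30 genes is at -0.41 and -0.58, below the grey boxes, and in hypoxia of control cells it is at 0.16, inside the box.

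An additive limma fit over the 4 arrays took the other cell line as the second observation of the oxygen difference, and the other oxygen level as the second observation of the knockdown difference. It has 1 residual degree of freedom. For oxygen it called 4 of the 30 genes, all higher in hypoxia, beside 2.82% of all genes called in either direction and 2.4% called higher (234 of 9749). At an unadjusted p under 0.05 it gave 14 of the 30 higher in hypoxia and 1 lower, beside 13.1% and 7.43% of all genes. *DDIT4* rose by 1.31 on the log2 scale (SE 0.143, adjusted p = 0.00935), *FGF21* by 2.12 (SE 0.291, adjusted p = 0.0196), *WARS1* by 1.07 (SE 0.154, adjusted p = 0.0229) and *ATF3* by 0.97 (SE 0.143, adjusted p = 0.0232). *DDIT4* was called in all 9 alternatives, with adjusted p from 0.00241 to 0.0459. *ATF3* was called in 7 of 9 (0.0105 to 0.0875), *FGF21* in 6 of 9 (0.00399 to 0.0948) and *WARS1* in 6 of 9 (0.00695 to 0.0727).

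For the knockdown the same limma fit called 0 of the 30 genes and 0 of all 9749 (0%). The smallest adjusted p over all genes was 0.0594. At an unadjusted p under 0.05, 24 of the 30 genes were lower under the HIF2A-KD label and 0 were higher, beside 7.52% of all genes lower and 2.11% higher. The smallest adjusted p among the 30 was 0.0846, for *CHAC1* with a fitted difference of -1.46 (SE 0.184) and for *MTHFD2* with -1.27 (SE 0.150). *MTHFD2* was called in 4 of 9 alternatives and *CHAC1* in 3 of the 8 that keep it. An additive fit gives a gene the same knockdown difference in hypoxia and in normoxia, and any departure from this counts as error.

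Among the kinases, *EIF2AK3* (PERK) followed the oxygen level in control cells. Its intensity was 263 in hypoxia and 174 in normoxia on the arrays labelled HIF2A-KD, against 380 in hypoxia and 175 in normoxia on the control arrays. The normoxic arrays thus differed by -0.01 between lines and the hypoxic ones by -0.50. Hypoxia was higher than normoxia by 0.55 under the HIF2A-KD label and by 1.05 in control cells. *EIF2AK4* (GCN2) varied little, with 880 in hypoxia and 755 in normoxia under the HIF2A-KD label, against 932 and 881 in control cells. All its differences were between -0.22 and 0.22.

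*ATF4* itself was bright on every array. It read 7432 in hypoxia and 5005 in normoxia on the arrays labelled HIF2A-KD, against 9857 in hypoxia and 8556 in normoxia on the control arrays. Both arrays with the knockdown label were below both control arrays, by -0.41 in hypoxia and -0.77 in normoxia. The hypoxia difference was 0.57 under the HIF2A-KD label and 0.20 in control cells. The limma fit called neither the oxygen term (adjusted p = 0.113) nor the knockdown term (adjusted p = 0.172).

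*ATF3*, a stress-induced regulator of the same protein family, read 158 in hypoxia and 79.9 in normoxia on the arrays labelled HIF2A-KD, against 310 in hypoxia and 137 in normoxia in control cells. Its knockdown differences were -0.90 in hypoxia and -0.68 in normoxia, close to each other. *DDIT3*, which encodes the death-associated factor CHOP, stood out on 1 array. It read 185 in hypoxia and 131 in normoxia under the HIF2A-KD label, against 580 in hypoxia and 184 in normoxia in control cells. The hypoxic HIF2A-KD array was thus at the level of the normoxic control array. The hypoxia difference of *DDIT3* was 0.45 under the HIF2A-KD label and 1.57 in control cells, and the knockdown difference was -1.57 in hypoxia and -0.44 in normoxia. *NUPR1*, a small stress-induced nuclear protein, showed the other order. It read 1447 in hypoxia and 825 in normoxia under the HIF2A-KD label, against 1709 and 1465 in control cells, so the array that stood apart was the normoxic one with the knockdown label.

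Of the feedback and stress effectors, *PPP1R15A*, which encodes the GADD34 subunit that directs a phosphatase to eIF2 alpha, resembled *DDIT3*. It read 621 in hypoxia and 460 in normoxia on the arrays labelled HIF2A-KD, against 2432 in hypoxia and 922 in normoxia on the control arrays. The knockdown difference was -1.94 in hypoxia, rank 3 from the lowest of all 9749 genes, and -0.98 in normoxia. In hypoxia this was 3.92-fold lower as a ratio of intensities. Hypoxia was higher by 0.42 under the HIF2A-KD label and by 1.38 in control cells. The 4 other probe sets of *PPP1R15A* that passed gave -1.11 to -1.65 between lines in hypoxia and -0.18 to -0.41 in normoxia.

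*CHAC1*, a glutathione-degrading enzyme that ATF4 and CHOP act on, was dim on 1 array. It read 40.2 in hypoxia and 10.1 in normoxia under the HIF2A-KD label, against 115 in hypoxia and 68.6 in normoxia in control cells. In normoxia the array labelled HIF2A-KD was below the 95th percentile of the reporters, and the gene was at least 3.33-fold lower there than in control cells. The knockdown difference was -1.22 in hypoxia and -1.70 in normoxia. Its other probe set gave -1.17 in hypoxia and -0.89 in normoxia, and a hypoxia difference under the HIF2A-KD label of 0.06 in place of 1.11.

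*DDIT4*, an inhibitor of the growth kinase complex mTORC1 and also known as a hypoxia-responsive gene, was ordered by both factors. It read 242 in hypoxia and 79.7 in normoxia under the HIF2A-KD label, against 403 in hypoxia and 167 in normoxia in control cells. Hypoxia was higher by 1.43 under the HIF2A-KD label and by 1.20 in control cells. The knockdown difference was -0.70 in hypoxia and -0.93 in normoxia. *TRIB3*, a pseudokinase that restrains the response, read 106 in hypoxia and 100.2 in normoxia under the HIF2A-KD label, against 136 and 119 in control cells, and no difference exceeded 0.31 in size. *SESN2*, a leucine sensor of the mTORC1 pathway, was near the background on all arrays and is described in the closing section.

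Of the 9 amino acid and folate enzymes, 8 had both arrays labelled HIF2A-KD below both control arrays, beside 17.7% of all genes, and the exception was *CTH*. All 9 were lower on the HIF2A-KD array in hypoxia, beside 55.7% of all genes, and 8 were lower on the array labelled HIF2A-KD in normoxia, beside 56.4%. Their median knockdown difference was -0.42 in hypoxia and -0.58 in normoxia. The median hypoxia difference was 0.04 under the HIF2A-KD label and -0.14 in control cells. *PSPH*, which makes serine from phosphoserine, differed by line and hardly by oxygen. It read 1425 in hypoxia and 1383 in normoxia under the HIF2A-KD label, against 2349 in hypoxia and 2276 in normoxia in control cells. Its knockdown differences were -0.72 and -0.71 in hypoxia and in normoxia, and both of its hypoxia differences were 0.04.

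*ASNS*, asparagine synthetase, read 4531 in hypoxia and 4455 in normoxia under the HIF2A-KD label, against 6069 in hypoxia and 6683 in normoxia in control cells. The knockdown difference was -0.42 in hypoxia and -0.58 in normoxia. *PSAT1*, the transaminase of serine synthesis, read 5899 and 5812 under the HIF2A-KD label in hypoxia and normoxia, against 7953 and 10764 in control cells. Both genes were thus level across oxygen under the HIF2A-KD label and highest on the normoxic control array. For *PSAT1* the normoxic difference between lines was -0.89, and its 2 other probe sets gave -1.35 and -1.63. *PHGDH*, the first enzyme of serine synthesis, had probe sets that differed in size. The brightest read 5111 in hypoxia and 3954 in normoxia under the HIF2A-KD label, against 5694 and 5135 in control cells, with knockdown differences of -0.16 in hypoxia and -0.38 in normoxia. Its 4 other probe sets gave -0.42 to -0.64 in hypoxia and -0.16 to -0.59 in normoxia.

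*MTHFD2*, a mitochondrial folate enzyme, had the largest knockdown difference of the 9 enzymes at each oxygen level. It read 1050 in hypoxia and 538 in normoxia under the HIF2A-KD label, against 2231 in hypoxia and 1503 in normoxia in control cells. The difference between lines was -1.08 in hypoxia and -1.45 in normoxia, and a second probe set gave -1.03 and -1.62. Hypoxia was higher by 0.94 under the HIF2A-KD label and by 0.57 in control cells. *SHMT2*, the mitochondrial enzyme that passes the serine carbon to folate, read 2293 in hypoxia and 1555 in normoxia under the HIF2A-KD label, against 2873 in hypoxia and 3285 in normoxia in control cells. Its difference between lines was -0.32 in hypoxia and -1.07 in normoxia. Its hypoxia difference was 0.56 under the HIF2A-KD label and -0.19 in control cells, and its other probe set gave 0.67 and 0.32. *ALDH1L2*, also a mitochondrial folate enzyme, read 533 in hypoxia and 646 in normoxia under the HIF2A-KD label, against 841 and 977 in control cells, a difference of -0.64 in hypoxia and -0.58 in normoxia.

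The enzymes of cysteine synthesis did not follow this pattern alike. *CTH* read 1882 in hypoxia and 3172 in normoxia under the HIF2A-KD label, against 2211 in hypoxia and 2975 in normoxia in control cells. It was the only one of the 30 genes with both hypoxic arrays below both normoxic arrays, by -0.75 under the HIF2A-KD label and -0.43 in control cells. Its 2 other probe sets that passed were also lower in hypoxia under both labels. The limma fit gave an oxygen difference of -0.59 (adjusted p = 0.0673), called in 3 of 9 alternatives. *CBS*, the enzyme before it, read 85.3 in hypoxia and 62.5 in normoxia under the HIF2A-KD label, against 115 and 90.5 in control cells.

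The 7 tRNA charging and export genes were all lower under the HIF2A-KD label at both oxygen levels, beside 33.7% of all genes, with a median of -0.32 in hypoxia and -0.44 in normoxia. None of these differences reached 2-fold. *WARS1*, the tryptophanyl-tRNA synthetase, differed from the others in its hypoxia difference. It read 518 in hypoxia and 269 in normoxia under the HIF2A-KD label, against 839 in hypoxia and 349 in normoxia in control cells. Hypoxia was higher by 0.91 under the HIF2A-KD label and by 1.23 in control cells, and the 3 other probe sets that passed gave 0.17 to 0.61 under the HIF2A-KD label and 0.68 to 0.78 in control cells. The mean of its probe sets lowered these differences to 0.52 and 0.86.

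For the other 6 genes of this role the hypoxia difference was between -0.39 and 0.44. *AARS1*, the alanyl-tRNA synthetase, read 1361 in hypoxia and 1385 in normoxia under the HIF2A-KD label, against 1963 and 2037 in control cells. Its probe sets disagreed on hypoxia, since 1 of them gave 0.92 under the HIF2A-KD label and 1.37 in control cells where the brightest gave -0.03 and -0.05. *SARS1* read 2027 in hypoxia and 1491 in normoxia under the HIF2A-KD label, against 2311 and 2291 in control cells. *NARS1* read 4102 and 4386 in hypoxia and normoxia under the HIF2A-KD label, against 4519 and 5944 in control cells. *EPRS1* read 3903 in hypoxia and 3534 in normoxia under the HIF2A-KD label, against 5101 and 4266 in control cells. Another of its probe sets was not lower under the HIF2A-KD label, at 0.02 in hypoxia and 0.07 in normoxia, while the others that passed were lower. The tRNA exporter *XPOT* read 2571 in hypoxia and 2977 in normoxia under the HIF2A-KD label, against 3207 and 3464 in control cells. For each of these 4 synthetases and for *XPOT* the knockdown differences at the brightest probe set were between -0.14 and -0.61. *MARS1* read 665 in hypoxia and 702 in normoxia under the HIF2A-KD label, against 795 and 1006 in control cells, but its other probe set was higher by 0.37 on the normoxic array labelled HIF2A-KD than on the normoxic control array.

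*FGF21*, a hormone secreted in nutrient stress, had the widest range of the 30 genes on this scale. It read 465 in hypoxia and 53.8 in normoxia on the arrays labelled HIF2A-KD, against 1041 in hypoxia and 368 in normoxia on the control arrays. Both factors ordered it, and the normoxic array labelled HIF2A-KD was the lowest. Hypoxia was higher by 2.78 under the HIF2A-KD label, an 8.63-fold ratio of intensities, and by 1.46 in control cells, a ratio of 2.83. The knockdown difference was -1.14 in hypoxia and -2.46 in normoxia, which was the lowest of all 9749 genes. *FGF21* has 1 probe set, so no second reading was possible.

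*VLDLR*, a lipoprotein receptor known as a target of both ATF4 and HIF factors, was low on 1 array alone. It read 200 in hypoxia and 64.5 in normoxia under the HIF2A-KD label, against 298 in hypoxia and 290 in normoxia in control cells. Its knockdown difference was -0.54 in hypoxia and -1.92 in normoxia, and its hypoxia difference was 1.42 under the HIF2A-KD label and 0.04 in control cells. A second probe set gave -0.41 and -1.40 between lines, and 0.96 and -0.03 for hypoxia. *STC2*, a secreted glycoprotein, read 42.5 in hypoxia and 19.0 in normoxia under the HIF2A-KD label, against 48.4 and 37.7 in control cells. On the normoxic array labelled HIF2A-KD it was below the 95th percentile of the reporters, and against that percentile it was at least 1.83-fold lower there than in control cells. Its readings on the other arrays were also dim, near those of the leukocyte markers, so this bound is uncertain.

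**Figure D4:**
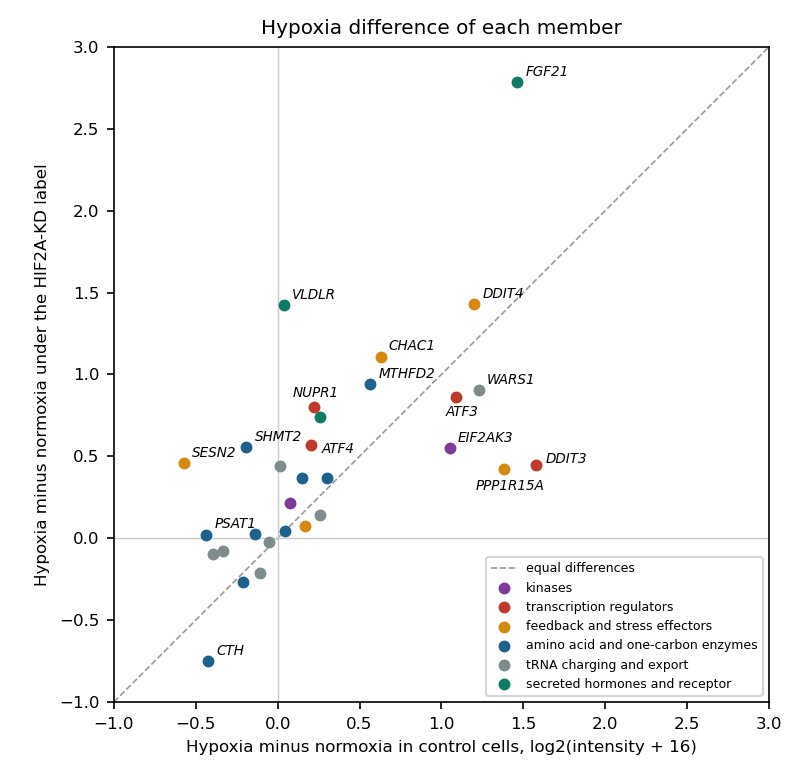
Hypoxia minus normoxia of each of the 30 genes under the HIF2A-KD label (vertical) and in control cells (horizontal), as differences of log2(intensity + 16), coloured by role, with a dashed line where both are equal. *FGF21* and *VLDLR* lie above the line, at 2.78 and 1.42 on the vertical axis, and *DDIT3* and *PPP1R15A* lie below it, at 1.57 and 1.38 on the horizontal axis.

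The genes thus did not share a single order of arrays. The lowest of the 4 arrays was the normoxic one labelled HIF2A-KD for 23 genes, beside 30.7% of all genes, and the hypoxic HIF2A-KD array for 6 (*ALDH1L2*, *CTH*, *AARS1*, *NARS1*, *MARS1* and *XPOT*), beside 20.1%. It was the hypoxic control array for *SESN2* alone, beside 26.1%. For 0 of the 30 genes was it the normoxic control array, beside 23% of all genes. The highest array was the hypoxic control array for 20 genes, beside 35.1% of all genes, and the normoxic control array for 8, beside 26%. These 8 were *ASNS*, *PSAT1*, *SHMT2*, *ALDH1L2*, *AARS1*, *NARS1*, *MARS1* and *XPOT*, all of them enzymes of amino acid, folate or tRNA metabolism or the tRNA exporter.

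The difference between the knockdown difference in hypoxia and that in normoxia describes how the 2 factors combine, and with 1 array per group it leaves no degree of freedom for a test. It was above 0 for 19 genes, beside 49.6% of all genes, and below 0 for 11, beside 50.4%, with a median of 0.19 where that of all genes was -0.00. It was highest for *VLDLR* (1.38), *FGF21* (1.32) and *SESN2* (1.03), of which *SESN2* was below the reporter background on 3 of the 4 arrays and moved between 0.45 and 1.77 with the pseudocount, and lowest for *DDIT3* (-1.13) and *PPP1R15A* (-0.96). A value above 0 means that the lines lay further apart in normoxia for *VLDLR* and *FGF21*. A value below 0 means that they lay further apart in hypoxia for *DDIT3* and *PPP1R15A*. The normoxic arrays include the one labelled HIF2A-KD on which *EPAS1*, dim in normoxia, was not lower than in control cells.

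Probe sets other than the brightest gave a further reading of the same arrays for 19 of the 30 genes, with 36 probe sets that passed the threshold. In hypoxia 35 of the 36 were lower on the HIF2A-KD array, with a median of -0.49, beside 13135 of all 23455 probe sets that passed. In normoxia 32 of the 36 were lower on the array labelled HIF2A-KD, with a median of -0.54, beside 12873 of the 23455. For the hypoxia difference 31 of 36 had the direction of the brightest probe set under the HIF2A-KD label and 29 of 36 in control cells. Probe sets of a gene can share transcript sequence and always share the array, so they are not replicates.

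**Figure D5:**
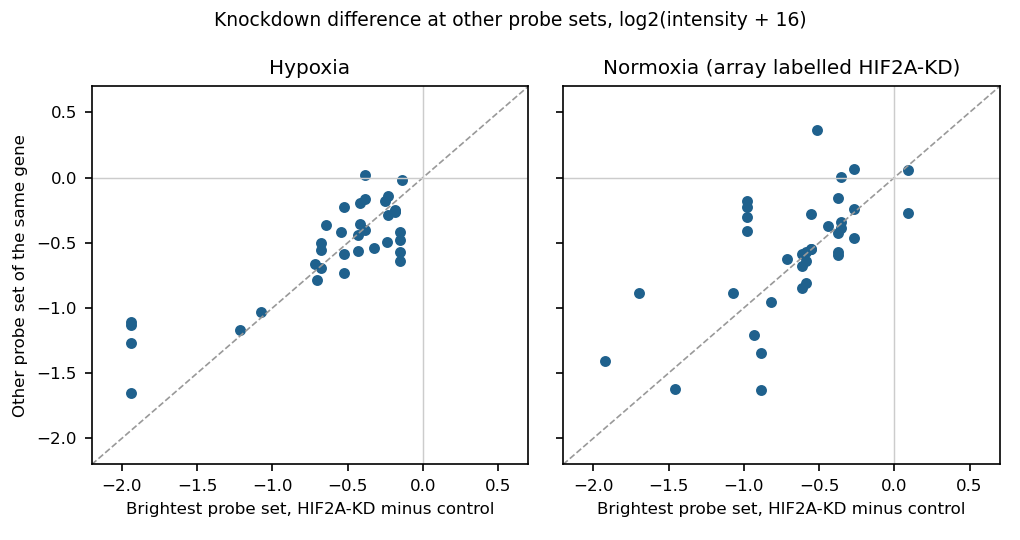
Knockdown differences of log2(intensity + 16) at the 36 other probe sets (vertical) against the brightest probe set of the same gene (horizontal), in hypoxia on the left and in normoxia on the right, with a dashed line where both are equal. In hypoxia 35 of the 36 points lie below 0, and in normoxia 32 of the 36 do, with a wider scatter around the line.

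Genes around the response that are not on the list of 35 were read in 5 further lists of 60 genes in all, of which 53 passed the threshold. The 13 genes of the eIF2 machinery itself (subunits, exchange factors, the other kinases and regulators) had medians of 0.01 in hypoxia and -0.05 in normoxia between HIF2A-KD and control. Only *IMPACT*, an inhibitor of GCN2, reached 2-fold there, with 84.7 in hypoxia and 49.0 in normoxia under the HIF2A-KD label, against 145 in hypoxia and 48.2 in normoxia in control cells. Its hypoxia difference was 0.63 under the HIF2A-KD label and 1.33 in control cells. The 9 measured amino acid transporters were closer to the list itself. On the array labelled HIF2A-KD 8 of the 9 were lower in hypoxia and 9 of the 9 in normoxia, beside 55.7% and 56.4% of all genes, with medians of -0.46 and -0.54. *SLC7A6*, the exception in hypoxia, and *SLC7A11* were below the reporter background on 2 arrays each, and *SLC7A5* on 1. *SLC1A4*, a carrier of serine and alanine, differed most in normoxia, with 191 on the array labelled HIF2A-KD, against 425 on the control array (-1.09).

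The 12 other tRNA synthetases, which charge the remaining amino acids, had medians of -0.10 in hypoxia and -0.18 in normoxia, smaller than those of the tRNA genes on the list. In normoxia these 12 ranged from -0.86 to 0.20, where the tRNA genes on the list ranged from -0.61 to -0.22. The 13 measured further targets of ATF4 and CHOP had medians of -0.39 in hypoxia and -0.19 in normoxia between lines, and 12 of the 13 were lower on the HIF2A-KD array in hypoxia, beside 55.7% of all genes. In this list 5 genes were at least 2-fold higher in hypoxia in control cells, beside 3.05% of all genes. They were the protein disulfide oxidase *ERO1A* (1.93), the autophagy receptor *SQSTM1* (1.72), *GADD45B* (1.68), the mitochondrial protease *LONP1* (1.02) and *HERPUD1* of protein disposal (1.01). Under the HIF2A-KD label only *ERO1A* was, at 1.45, beside 1.38% of all genes. *LONP1* fell just short of the count there, at 0.999, so its hypoxia difference was nearly the same under both labels. *HERPUD1*, *SQSTM1* and *GADD45B* were at 0.60, 0.59 and 0.42 under the HIF2A-KD label. The 6 genes of the other unfolded protein branches had medians of -0.17 in hypoxia and 0.12 in normoxia between lines, with none at 2-fold. Over all 53 genes the median knockdown difference was -0.14 in hypoxia and -0.17 in normoxia, and 36 of 53 were lower in hypoxia and 39 of 53 in normoxia under the HIF2A-KD label, beside 55.7% and 56.4% of all genes.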

How the data were processed

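RNA of 4 cultures, 1 per group, was labelled with biotin from 100 ng total RNA by the authors with an Affymetrix 3' kit and hybridised to canine arrays. The deposited table holds linear intensity values, 1 per probe set and array. How the scans were summarised and scaled is not given in the sources used here. A difference in scaling between arrays would therefore shift all genes of an array together. Groups were taken from the sample labels.

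From these values log2(intensity + 16) was computed. Of 42924 probe sets, 29254 have 1 gene symbol in the platform annotation, 439 have several and 13167 none, and 64 are reporters, of which the 63 dim ones gave the background. Genes were kept where the highest of 4 intensities reached 28.75, the median of the table. The brightest kept probe set stood for a gene. A fold against a value below the 95th percentile of the reporters is given as a lower bound, against that percentile. The number of arrays limits the precision. limma 3.58.1 in R 4.3.3 fitted oxygen and cell line as additive terms with a trended prior variance, and p-values were adjusted by the Benjamini-Hochberg method over 9749 genes, with calls under 0.05. The oxygen term of the limma script was tested on simulated data with the same noise for all genes and no departure from additivity. The knockdown term was not simulated. Python 3.11.15, numpy 2.4.6, pandas 2.3.3 and matplotlib 3.10.9 were used.

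The genes, roles and lists were chosen with earlier results of these data known. All 30 genes are given by value, range or count, with full values for those at 2-fold in a comparison, those called by limma, *ATF4*, *DDIT3*, both kinases and the 3 with the largest difference of knockdown differences. Of the other lists only genes at 2-fold are named. Alternatives were quantile normalization, median centring of each array, pseudocounts of 1 and 64, a stricter filter (the 75th percentile of all values) or none, averaging over probe sets, 1.5-fold as the size counted, and limma with robust moderation or with an untrended prior. Promoter and protein sequences were not analysed here, and no coordinates are given because the files name no genome build.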

Additional observations from a re-analysis of the deposited data

Results flagged for a closer look

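*SESN2* was the only one of the 30 genes whose arrays moved in opposite directions in both kinds of comparison. Its intensity was 28.9 in hypoxia and 16.6 in normoxia under the HIF2A-KD label, against 12.9 in hypoxia and 27.0 in normoxia in control cells. The knockdown difference was 0.63 in hypoxia and -0.40 in normoxia, and the hypoxia difference was 0.46 under the HIF2A-KD label and -0.57 in control cells. With 1 array per group the difference between these values was not tested. On 3 of the 4 arrays the intensity was below the reporter background, taken at its 95th percentile (20.6 to 27.2). *ASNS*, *PSAT1* and *SHMT2* also had hypoxia differences of opposite sign, and *CTH* knockdown differences, each with at least 1 value smaller in size than 0.285. This size is an SD across all genes, scaled from their departures from additivity. It includes real departures and is not an error of a single gene.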

How the results depend on the processing

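No count or median changed its sign under an alternative, and no single-gene difference of at least 1 did. Of 1025 single-gene values 18 changed sign, all with a size of 0.334 or less in the main analysis, 11 of them with averaging over probe sets (among them *CTH* in normoxia, which then was lower under the HIF2A-KD label), 5 after quantile normalization and 2 after median centring. Of 103 alternative values for the counts and medians, 80 stayed within the range set for them (1.5 times a count, 0.1 for a median). Of the 1025 single-gene values 980 moved by less than 0.285, the SD across genes described above. The others came from averaging over probe sets or from the pseudocount, and from the settings given here. With a 1.5-fold threshold the members counted for hypoxia under the HIF2A-KD label were 10. Of these 9 were higher and 1 lower, beside 533 and 262 of all 9749 genes. For the knockdown in hypoxia they were 11, with 1 higher and 10 lower, beside 158 and 481 of all genes. For the knockdown in normoxia they were 14, all lower, beside 239 higher and 346 lower of all genes. For oxygen the limma fit called 8 of the 30 genes after quantile normalization or median centring, 7 with robust moderation, and 1 without the filter or without the trend. Over all genes it called 485 after quantile normalization, 415 after median centring, 456 with robust moderation, 178 with the mean of probe sets, 102 without the trend and 70 without the filter, beside 275. For the knockdown it called 2 of the 30 genes, *CHAC1* and *MTHFD2*, after quantile normalization, after median centring or with robust moderation, and 1, *MTHFD2*, with a pseudocount of 1, beside 0. Over all genes these were 16, 15, 21 and 10, and 4 with a pseudocount of 64. The causes were not tested. No scaling moved the median of all genes by 0.1 or more, but after quantile normalization 45.4% of all genes were lower on the HIF2A-KD array in hypoxia in place of 55.7%, and 55.1% were lower in hypoxia in control cells in place of 46.8%, with 12 of the 30 genes in place of 10. The filter at the 75th percentile keeps 25 of the 30 genes. No paired analysis was possible because the labels carry no replicate numbers and each group has 1 array. The additive limma fit already compares within lines and within oxygen levels, and no replicate could be left out.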
